A study of Homo sapiens with 6 samples.

Results

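The genes described here are 10 feedback inhibitors and transcription factors that report on ERK signalling, namely the phosphatase genes DUSP4, DUSP5 and DUSP6, the Sprouty genes SPRY1, SPRY2 and SPRY4, the Sprouty-related genes SPRED1 and SPRED2, and the ETS factor genes ETV4 and ETV5. They were chosen by name after the values of this same comparison were known, so their values are given as a description, with no test. All 10 were measured, by 27 probe sets that name no other gene, among 49293 probe sets and 18132 genes in all. Expression was measured on 6 Affymetrix arrays hybridised with total RNA of U87, an established human glioma line cultured in DMEM with fetal bovine serum. In 3 arrays (U87-PCGF1-shRNA) the cells had been given lentivirus encoding an shRNA (a short hairpin RNA) that targets PCGF1, a subunit of a Polycomb repressive complex, and in the other 3 (U87-NC) a negative control lentivirus. The labels call the arrays of a group biological replicates without saying that they came from separate cultures, and the spread that errors and p-values rest on may in part be technical.

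In the ERK pathway, a growth factor receptor activates RAS, and RAS activates in turn the kinases RAF, MEK and ERK. Active ERK induces its own inhibitors. DUSP proteins of this kind remove the activating phosphates from ERK, DUSP6 in the cytoplasm and DUSP4 and DUSP5 in the nucleus, while Sprouty and SPRED proteins act upstream, on the steps that activate RAS and RAF. ETV4 and ETV5 are ETS family transcription factors whose genes are induced by FGF and ERK signalling, and transcripts of all these families are commonly read as a gauge of ERK output.

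The deposited values are log2 signals from which the median of the 6 arrays had been subtracted for each probe set. Such values compare arrays and say nothing of how abundant a transcript is, so the 10 genes cannot be ranked by level, and whether U87 cells express glial markers could not be checked. PCGF1 itself is represented by 1 probe set, so its difference could not be compared between probe sets. PCGF1 averaged -0.20 ± 0.07 in PCGF1-shRNA arrays and 0.23 ± 0.09 in NC arrays (SD, n = 3 each). The difference of -0.43 ± 0.06 (SE) leaves 74.3% of the NC signal (limma adjusted p = 0.00410). The exact two-sided permutation test gave 0.1, the smallest p that 3 against 3 arrays allow. The sample names carry T0 for every PCGF1-shRNA array and T1 for every NC array with no explanation, and what these stand for cannot be told apart from the knockdown. The 3' over 5' signal of control transcripts is a gauge of RNA quality. Both of its terms are centred here, so the log2 ratio only compares arrays, and its true level is unknown. For ACTB this centred ratio ran from 0.00643 to 0.106 in PCGF1-shRNA arrays and from -0.0710 to 0.0375 in NC arrays. For GAPDH it ran from -0.00767 to 0.0438 in PCGF1-shRNA arrays and from -0.0143 to 0.00975 in NC arrays. The part of RNA quality in the results was not tested. Of 23 measured markers of glial, leukocyte, endothelial and epithelial cells, 0 passed limma's test and 2 had an unadjusted p under 0.05. Without the share of all genes at that unadjusted cutoff, nothing is read from the latter count.

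DUSP6 had the largest difference of the 10 genes. Averaged over its 4 probe sets it stood at -0.38, -0.49 and -0.43 in PCGF1-shRNA replicates 1 to 3, against 0.47, 0.48 and 0.37 in NC replicates 1 to 3. Every PCGF1-shRNA array was far below every NC array. The log2 difference of -0.87 ± 0.05 (SE, 95% interval -0.99 to -0.76) corresponds to 54.5% of the NC signal, and DUSP6 was number 9 among all 18132 genes in order of decrease. In bulk RNA, fewer cells that carry a transcript and less transcript per cell cannot be told apart. The 4 DUSP6 probe sets lay close together, from -0.93 to -0.85, and the groups did not overlap in any of them.

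SPRY2, which encodes an inhibitor of growth factor receptor signalling upstream of RAS, had the next largest decrease. It is represented by 1 probe set, with -0.21, -0.19 and -0.30 in PCGF1-shRNA arrays, against 0.20, 0.21 and 0.19 in NC arrays. The NC arrays lay within a narrow band (SD 0.01, n = 3) and the PCGF1-shRNA arrays below it (SD 0.06, n = 3), with no overlap. The log2 difference was -0.43 ± 0.04 (SE), or 74.0% of the NC signal, about the size of the difference in PCGF1 itself.

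ETV4 was lower by a smaller amount. Its average stood at -0.16, -0.10 and -0.04 in PCGF1-shRNA arrays, against 0.18, 0.03 and 0.11 in NC arrays, so that the groups did not overlap but the nearest arrays were close. The log2 difference was -0.21 ± 0.05 (SE). Both ETV4 probe sets were lower, at -0.16 and -0.26. ETV5, its close relative, was not lower. Its averages of 0.04, -0.05 and 0.09 in PCGF1-shRNA arrays overlapped those of -0.03, -0.01 and 0.00 in NC arrays, with a log2 difference of 0.04 ± 0.05 (SE, 95% interval -0.06 to 0.14). Of the 4 ETV5 probe sets 3 were slightly positive and 1 slightly negative, and the groups overlapped in all 4.

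DUSP4, a nuclear counterpart of DUSP6, differed in the opposite direction. Its single probe set read 0.13, 0.08 and 0.17 in PCGF1-shRNA arrays, against -0.16, -0.08 and -0.16 in NC arrays. All PCGF1-shRNA arrays were above all NC arrays, with a log2 difference of 0.26 ± 0.04 (SE), or 1.20-fold. DUSP5, whose product also acts on ERK in the nucleus, had values of -0.02, -0.02 and 0.01 in PCGF1-shRNA arrays and 0.05, -0.01 and 0.02 in NC arrays. These overlap, and the log2 difference was -0.03 ± 0.04 (SE, 95% interval -0.12 to 0.06). The 3 phosphatase genes thus lay on both sides of 0 and at it.

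**Figure D1:**
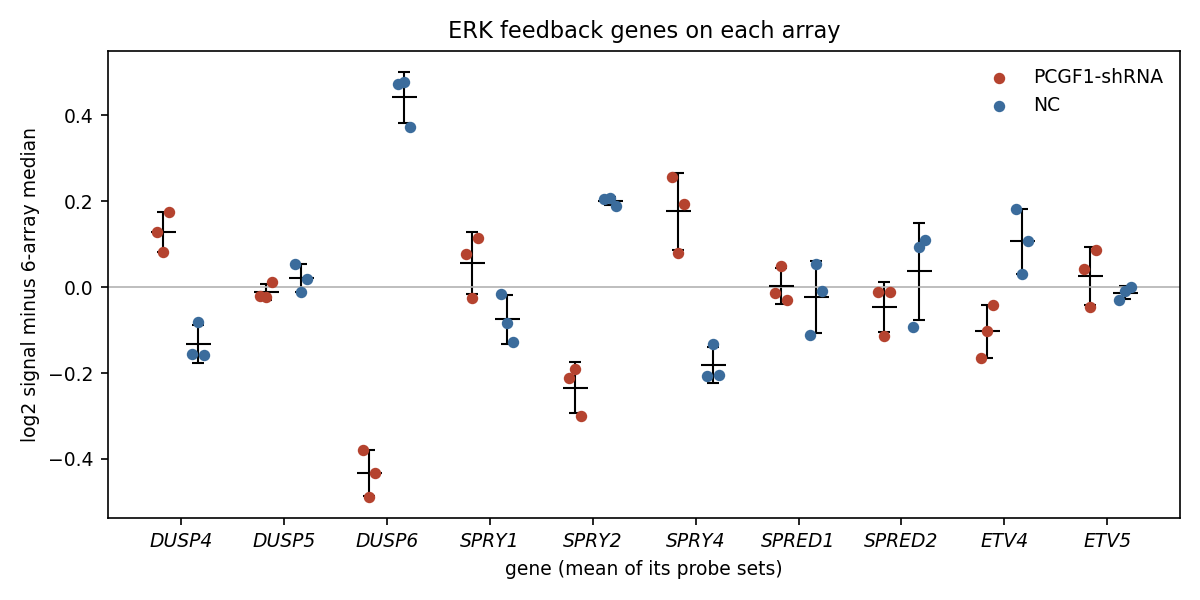
Log2 signal minus the 6-array median (vertical axis) of the 10 genes (horizontal axis) on each array, with PCGF1-shRNA points left of NC points. Each point is 1 array, and the black lines show the mean and SD of 3 arrays. DUSP6 and SPRY2 are lower in all 3 PCGF1-shRNA arrays and DUSP4 and SPRY4 are higher, while the points of DUSP5, SPRED1, SPRED2, SPRY1 and ETV5 overlap between the groups.

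SPRY4, a further Sprouty inhibitor, was higher on average, but the value came from 1 of its 3 probe sets. The averages were 0.26, 0.08 and 0.19 in PCGF1-shRNA arrays, against -0.21, -0.13 and -0.20 in NC arrays, with a log2 difference of 0.36 ± 0.05 (SE). Probe set 11762359_x_at read 0.71, 0.50 and 0.57 in PCGF1-shRNA arrays, against -0.50, -0.60 and -0.70 in NC arrays. This difference of 1.19 ± 0.07 (SE), or 2.29-fold, exceeds in size that of any DUSP6 probe set. The other probe sets did not show it. Probe set 11736669_s_at read 0.08, -0.19 and -0.06 in PCGF1-shRNA arrays and 0.02, 0.18 and -0.02 in NC arrays, a difference of -0.12 ± 0.08 (SE, 95% interval -0.31 to 0.07). Probe set 11754344_s_at read -0.02, -0.07 and 0.07 in PCGF1-shRNA arrays and -0.13, 0.02 and 0.11 in NC arrays, with a 95% interval of -0.17 to 0.17 for the difference. In Affymetrix naming, _x_at marks a probe set in which some probes also match other sequences and _s_at one whose probes match several transcripts. All 3 SPRY4 probe sets carry such a suffix, and what each one binds was not tested. The gap of 1.31 between the lowest and highest SPRY4 probe set was the widest of the 11734 genes with 2 or more probe sets, whose median gap was 0.138.

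**Figure D2:**
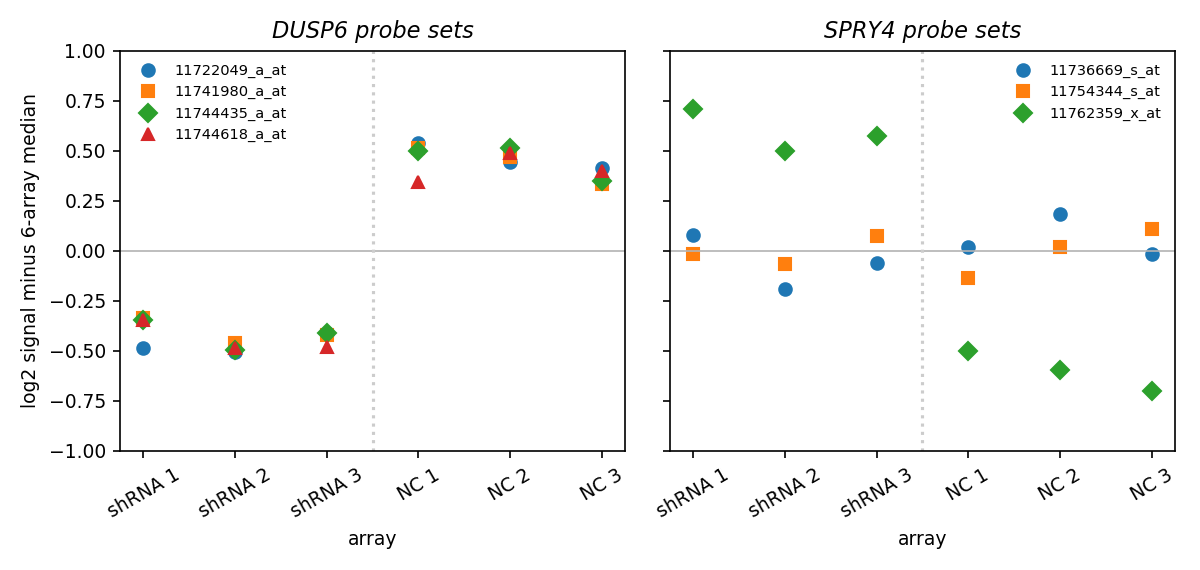
Log2 signal minus the 6-array median (vertical axis) of each probe set of DUSP6 (left panel) and SPRY4 (right panel) on the 3 PCGF1-shRNA and 3 NC arrays (horizontal axis), with 1 symbol per probe set. The 4 DUSP6 probe sets fall together below 0 in the PCGF1-shRNA arrays, while of the 3 SPRY4 probe sets only 11762359_x_at separates the groups, at 0.50 to 0.71 against -0.70 to -0.50.

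SPRY1, also a Sprouty inhibitor, leaned to higher values. Its averages of 0.08, -0.02 and 0.12 in PCGF1-shRNA arrays overlapped those of -0.02, -0.08 and -0.13 in NC arrays, with a log2 difference of 0.13 ± 0.05 (SE). All 3 SPRY1 probe sets were positive, from 0.07 to 0.17, and the groups did not overlap in 2 of them. Both of these carry the suffix _s_at. The remaining probe set, 11717651_a_at, had a difference of 0.07 ± 0.08 (SE) with overlapping groups.

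The SPRED genes, whose products recruit the RAS inhibitor neurofibromin, differed little. SPRED1 averaged 0.00 ± 0.04 in PCGF1-shRNA arrays and -0.02 ± 0.08 in NC arrays (SD, n = 3 each), and its 5 probe sets were divided, 3 positive and 2 negative, from -0.13 to 0.15. SPRED2 averaged -0.05 ± 0.06 in PCGF1-shRNA arrays and 0.04 ± 0.11 in NC arrays (SD, n = 3 each), and all 3 of its probe sets were slightly negative, from -0.12 to -0.03. The 95% intervals of the differences were -0.09 to 0.14 for SPRED1 and -0.23 to 0.06 for SPRED2.

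Of the 10 genes, 5 had negative and 5 positive differences, with a median of -0.00 against a median of -0.01 over all genes. The size of the difference, without its sign, had a median of 0.17 among the 10 genes and 0.0691 over all genes. In the limma fit across all genes, DUSP6, SPRY2 and ETV4 lay past the threshold of an adjusted p of 0.05 on the lower side and DUSP4 and SPRY4 on the higher side, 5 of 10 genes. Over all genes 11.0% were past it, 6.36% higher and 4.63% lower. The groups did not overlap for 5 of the 10 genes and for 32.7% of all genes. Among single probe sets they did not overlap for 13 of 27, against 29.5% of all probe sets, and 7 of 27 lay past the threshold, against 7.24%. Because the genes were picked with these values in view, nothing is read from these counts. ETV4 lay past the threshold in the fit on all arrays and without NC replicate 2. It lay short of the threshold when any other array was left out, with log2 differences of -0.24 to -0.17 in those fits. Fitted on their own, neither of the ETV4 probe sets lay past it.

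**Figure D3:**
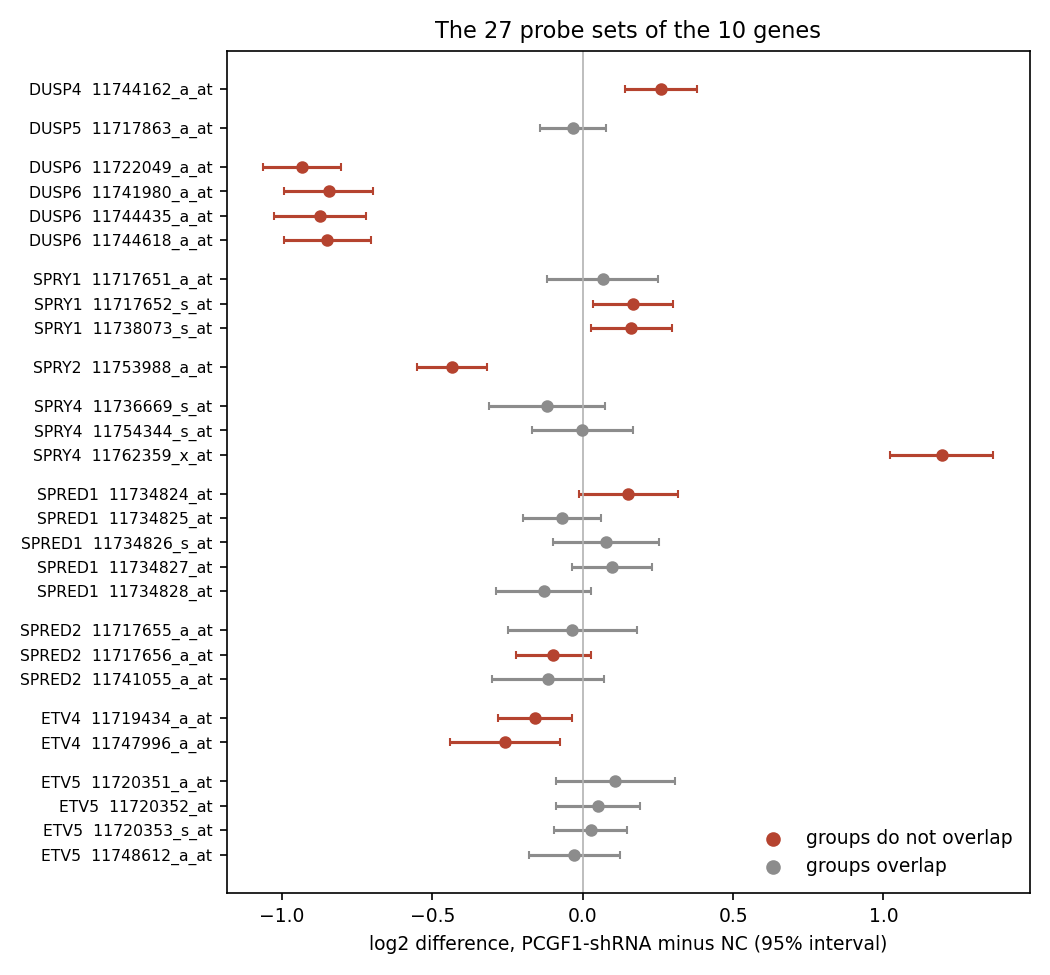
Log2 difference, PCGF1-shRNA minus NC (horizontal axis, 95% interval from the fit over all probe sets), of the 27 probe sets of the 10 genes (vertical axis), each a point coloured by whether the 3 PCGF1-shRNA and 3 NC arrays overlap. DUSP6 has 4 similar points between -0.93 and -0.85, and the SPRY4 points span -0.12 to 1.19.

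The start regions of the genes with the clearest or least even differences are shown because DUSP6 and SPRY2 were lower together while SPRY4 was not. Each sequence is the 250 bases before a transcription start in RefSeq on GRCh38.p14, printed on the strand of the gene. They are DUSP6 at chr12:89352502-89352751 (minus strand), SPRY2 at chr13:80341127-80341376 (minus strand, the outermost of 3 listed starts) and SPRY4 at chr5:142324248-142324497 (minus strand). Capitals mark an ETS core, CCGGAA, or TGACG, the core of the cAMP response element (CRE), each searched on both strands.
DUSP6: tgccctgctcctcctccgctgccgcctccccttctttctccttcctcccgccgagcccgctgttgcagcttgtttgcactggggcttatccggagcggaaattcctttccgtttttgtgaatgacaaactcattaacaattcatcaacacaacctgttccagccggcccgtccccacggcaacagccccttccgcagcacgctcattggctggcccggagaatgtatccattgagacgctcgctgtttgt
SPRY2: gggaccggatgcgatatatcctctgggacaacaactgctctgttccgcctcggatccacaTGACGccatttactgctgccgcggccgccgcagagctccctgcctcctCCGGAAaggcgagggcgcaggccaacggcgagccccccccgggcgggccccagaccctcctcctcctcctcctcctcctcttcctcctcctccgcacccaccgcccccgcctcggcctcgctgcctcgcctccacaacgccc
SPRY4: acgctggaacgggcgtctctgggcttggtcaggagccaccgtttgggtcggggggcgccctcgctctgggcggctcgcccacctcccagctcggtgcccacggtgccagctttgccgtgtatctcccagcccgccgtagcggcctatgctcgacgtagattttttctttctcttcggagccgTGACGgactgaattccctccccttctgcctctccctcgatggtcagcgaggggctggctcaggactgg

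The DUSP6 window held 0 matches to the motifs searched. The SPRY2 window held 1 ETS core, 142 to 137 bases before the start, and 1 CRE core, 190 to 186 bases before it. The windows of the other SPRY2 starts held 0 matches, and of the 2 SPRY1 windows, of a gene that was not lower, 1 held an ETS core. The SPRY4 window held 1 CRE core, 68 to 64 bases before the start. An ETS core occurs in 14.5% and a CRE core in 21.2% of the 35116 RefSeq start windows of the same length. The longer motifs, with the share of windows that hold them, were the ETS site CCGGAAGT (3.42%), the CRE TGACGTCA (1.65%), the AP-1 site TGANTCA (6.57%), the E-box CACGTG (6.34%) and the CArG box (1.16%), and none of them was found in these 3 windows. These are matches of letters only, and the short motifs overlap the longer ones of the same name.

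Other genes of the pathway, in lists compiled by role, were tested in the same fit. The 103 measured genes had a median log2 difference of -0.02, against -0.01 over all genes. Of these, 9 rose (8.74%) and 20 fell (19.4%), against 6.36% risen and 4.63% fallen over all genes. Like the 10 genes, these lists were compiled with results of this comparison known, so the excess of falls is a description and not independent evidence. Leaving out any 1 array lowered the number risen to between 2 and 7. It was 2 without PCGF1-shRNA replicate 3 or NC replicate 2. It was 3 without PCGF1-shRNA replicate 1 or NC replicate 1, and 4 without NC replicate 3. The number fallen was lowered as well, to between 14 (without NC replicate 3) and 17 (without PCGF1-shRNA replicate 3). With the most variable probe set of a gene in place of the average, some log2 differences were more than 1.5 times as large. Of the risen or fallen genes whose averages follow, these were DUSP1 (-0.39), ARAF (-0.42), SHC1 (0.37) and GAB1 (0.30, not passing). The others whose averages follow were EGF (0.39), PDGFRB (0.55), EPHA4 (0.40) and ETS1 (-0.48). Not named below were EGR1 (-0.80), MCL1 (-0.47), NRG1 (-0.31, not passing), PHLDA1 (-0.28) and MAFF (-0.53). Their averages were -0.40, -0.20, -0.15, -0.15 and -0.35, in that order. Genes that neither rose nor fell are not listed here. The most variable probe set is picked by its variance over all 6 arrays, group difference included. Larger differences are therefore in part built into the choice.

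Among the ligands that start the pathway, 4 of 17 fell and 1 rose. EREG, the EGF receptor ligand epiregulin, had -0.46, -0.32 and -0.30 in PCGF1-shRNA arrays, against 0.32, 0.17 and 0.23 in NC arrays. It fell by 0.60 on the log2 scale (SE 0.06, limma adjusted p = 0.00105), the largest fall of the ligands. FGF5, a fibroblast growth factor, and HGF, the ligand of MET, both fell by 0.24 (adjusted p = 0.0197 and 0.0204). EGF, the epidermal growth factor, rose by 0.23 ± 0.04 (SE, adjusted p = 0.0154). The last 3 calls depended on single arrays. FGF5 did not pass without PCGF1-shRNA replicate 2 or 3 or NC replicate 2 or 3 (adjusted p 0.0534 to 0.0684). HGF did not pass without PCGF1-shRNA replicate 1 or 2 or NC replicate 2 or 3 (adjusted p 0.0599 to 0.0715). EGF did not pass without PCGF1-shRNA replicate 3 or NC replicate 1 or 3 (adjusted p 0.0532 to 0.0583).

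Among 11 receptors of these ligands, 1 rose and 0 fell. PDGFRB, a receptor of platelet-derived growth factor, rose by 0.28 ± 0.06 (SE, limma adjusted p = 0.0223). It did not pass without PCGF1-shRNA replicate 1 or 2 or NC replicate 2 or 3 (adjusted p 0.0598 to 0.0767). At an unadjusted p under 0.05, 2 receptors were lower and 2 higher. Nothing is read from these unadjusted counts, since the share of all genes at that cutoff is not given.

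Of 16 measured genes in the list of the cascade from receptor to ERK, 3 rose and 1 fell. The list also holds RPS6KA1, RPS6KA2, RPS6KA3 and MKNK1, kinases downstream of ERK, and none of these passed. ARAF, one of the RAF kinases, had -0.12, -0.15 and -0.13 in PCGF1-shRNA arrays, against 0.16, 0.13 and 0.15 in NC arrays, and fell by 0.28 (SE 0.04, limma adjusted p = 0.00351). SHC1, an adaptor between receptors and RAS, rose by 0.22 ± 0.05 (SE, adjusted p = 0.0230), MAP2K2, the MEK2 kinase, by 0.21 ± 0.04 (adjusted p = 0.0194) and GAB1, a docking protein, by 0.17 ± 0.04 (adjusted p = 0.0295). None of the 3 rises passed in every alternative. SHC1 did not pass without PCGF1-shRNA replicate 1 or 3 or NC replicate 1 or 2 (adjusted p 0.0649 to 0.0821). MAP2K2 did not pass without PCGF1-shRNA replicate 3 or any 1 NC array (adjusted p 0.0554 to 0.0676). GAB1 did not pass once any array other than NC replicate 3 was left out (adjusted p 0.0726 to 0.0988).

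Other phosphatases and inhibitors in the lists mostly did not pass. Of 10 other dual-specificity phosphatases 1 fell and 0 rose. At an unadjusted p under 0.05 the counts were again 1 and 0. These were listed as phosphatases of MAP kinases (ERK, JNK and p38), and which of them act on ERK was not tested. DUSP1, which acts on JNK and p38 as well as ERK, fell by 0.26 (SE 0.04, limma adjusted p = 0.0105), with -0.19, -0.11 and -0.10 in PCGF1-shRNA arrays, against 0.18, 0.09 and 0.12 in NC arrays. Of 13 other inhibitors of receptor, RAS and ERK signalling 1 fell and 0 rose. An unadjusted p under 0.05 gave 3 lower and 4 higher. The share of all genes under the unadjusted cutoff is not given here, so nothing is read from the unadjusted counts of these lists. ERRFI1, an inhibitor of the EGF receptor, fell by 0.33 (SE 0.04, adjusted p = 0.00148). The nearest relatives of the 10 genes, SPRY3, SPRED3 and ETV1, did not pass by limma, with 0 of 3 also at an unadjusted p under 0.05. ETV1 had the largest difference, 0.26 ± 0.12 (SE, adjusted p = 0.199), with overlapping groups, but passed without PCGF1-shRNA replicate 2, at 0.40 ± 0.07 (SE, adjusted p = 0.0220).

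Of 19 other genes listed as responsive to ERK signalling, 10 fell and 2 rose, with a median of -0.15. Whether ERK controls each of them in these cells was not tested. The largest falls were those of the chemokine gene CXCL8 with -2.76, the protease inhibitor gene TFPI2 with -0.78, and the cytokine gene LIF with -0.63 (limma adjusted p up to 0.000575). The CXCL8 difference was smaller after quantile normalization, at -2.08 ± 0.04 (SE), and still passed. TFPI2 had -0.37, -0.42 and -0.39 in PCGF1-shRNA arrays, against 0.39, 0.44 and 0.33 in NC arrays. All TFPI2 probe sets carry the suffix _s_at or _x_at, and what they bind was not tested. The risen genes were both ephrin receptors, EPHA2 at 0.40 ± 0.05 (SE, adjusted p = 0.00255) and EPHA4 at 0.18 ± 0.04 (adjusted p = 0.0384). EPHA4 did not pass on any 5 of the 6 arrays (adjusted p 0.0594 to 0.119).

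Of 14 other ETS factors and repressors controlled by ERK, 3 fell and 2 rose. ETS2 fell by 0.43 (SE 0.04, limma adjusted p = 0.000739), ELK3 by 0.32 (SE 0.04, adjusted p = 0.00329) and ETS1 by 0.29 (SE 0.05, adjusted p = 0.0144), all 3 being ETS family factors. ETS2 had -0.23, -0.20 and -0.23 in PCGF1-shRNA arrays, against 0.18, 0.24 and 0.20 in NC arrays. CIC, a repressor of ETV genes that ERK signalling inactivates, rose by 0.20 ± 0.04 (SE, adjusted p = 0.0185) and its partner ATXN1 by 0.22 ± 0.05 (adjusted p = 0.0399). ETS1 did not pass without NC replicate 1 or 3 (adjusted p 0.0502 and 0.0543). CIC did not pass without PCGF1-shRNA replicate 1 or 3 or NC replicate 2 or 3 (adjusted p 0.0542 to 0.0654), nor did ATXN1 without PCGF1-shRNA replicate 1 or 3 or NC replicate 1 or 2 (adjusted p 0.114 to 0.119).

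**Figure D4:**
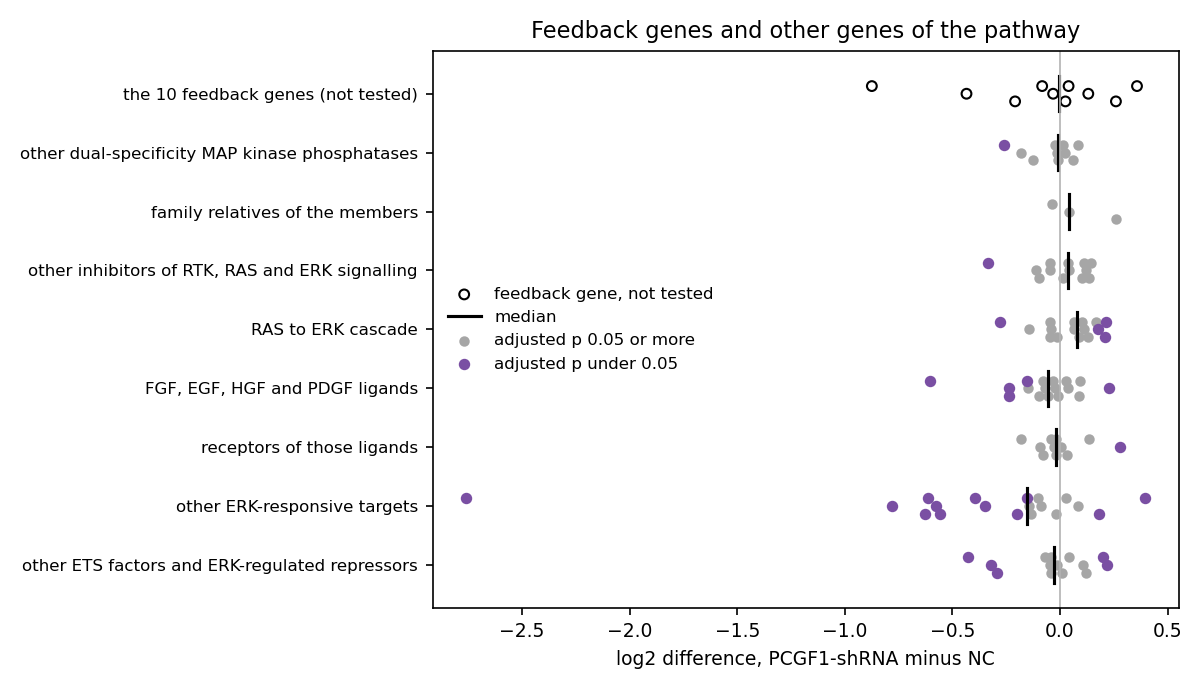
Log2 difference, PCGF1-shRNA minus NC (horizontal axis), of each gene in the 10 feedback genes and the pathway lists (vertical axis), each point a gene and each black line a median. Open circles are the 10 feedback genes, which were not tested, and purple points passed the limma test. The feedback genes run from -0.87 to 0.36 around a median near 0, and the ERK-responsive targets have the lowest median, -0.15.

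The genes whose values over the 6 arrays were closest to those of a feedback gene were found by the root mean square difference in log2 units, for the 4 genes with a difference of 0.25 or more in size. Closest to DUSP6 were SLC25A13, a mitochondrial carrier gene, at 0.0443, TFPI2 at 0.0537 and TMEM50A at 0.0548. Closest to SPRY2 were PNP, a purine nucleoside phosphorylase gene, at 0.0284 and LYAR at 0.0338. Closest to DUSP4 were AHSA2P at 0.0127, the ligand gene EGF at 0.0177 and CYRIA at 0.0193. For SPRY4, whose average mixes probe sets that disagree, they were MATN2 at 0.0308, COL6A1 at 0.0313 and FZD1 at 0.0323.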

How the data were processed

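Total RNA of U87 cells was measured on 6 Affymetrix arrays, 3 per group. The authors processed the arrays with RMA, per the submitters' processing notes (no version given), and RMA yields log2 values. The deposited log2 values are also centred so that each probe set has a median of 0 over the 6 arrays (largest departure 4.85e-07), a step that no source describes, so brightness and background are unknown. The log base is taken from RMA.

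After 102 control probe sets were left out, 49293 remained, of which 44988 had 1 gene symbol in the platform annotation, 1832 had several and 2473 had none. A gene is the mean of its single-symbol probe sets (18132 genes). Groups were compared with limma 3.58.1 in R 4.3.3 (lmFit, eBayes, two-sided, no covariates) with Benjamini-Hochberg adjustment over all genes and a threshold of 0.05. SEs and 95% intervals are limma's. The same code was tested on simulated data. The number of arrays limits the precision.

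The 10 genes and the lists were chosen with earlier results of these data known. The text names, in each list, up to 3 risen and 3 fallen genes by size among those past the threshold, otherwise the one with the largest difference, and for each feedback gene with a difference of at least 0.25 the 3 genes closest by root mean square difference, of which 1 is not reported here. Of 111 list genes 103 were measured, and the other 8 were not used here. Alternatives were quantile normalization, centring of arrays, the most variable probe set, probe sets without _s_at and _x_at, single probe sets, robust eBayes, array weights, a block for the replicate number and leaving out each array. Same-numbered arrays did not deviate together (correlations of deviations -0.042, -0.0511 and 0.0116), so the numbers were not taken to pair them. Sequences are RefSeq's (GRCh38.p14).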

Additional observations from a re-analysis of the deposited data

How the results depend on the processing

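The log2 differences of the 10 genes kept within 1 SD of the replicates in 125 of 129 recomputed values. The other 4 came when a gene's most variable probe set replaced the average, at -0.93 for DUSP6, 1.19 for SPRY4, 0.15 for SPRED1 and 0.11 for ETV5. That choice favours large differences, being made on the variance over all 6 arrays. Most of the 129 values could not have moved by 1 SD. Robust eBayes and the replicate block leave the log2 difference unchanged, and leaving out 1 array shifts it by less than 1 SD whatever the values. The count therefore says little of how firm the differences are. As single probe sets, SPRY4 turned to -0.12 and -0.00123 in 2 of 3. Without the _s_at and _x_at probe sets SPRY4 had no value, so that 1 of the 10 genes lay past the threshold on the higher side, and ETV4 also dropped out there, with the most variable probe set, with the replicate block and without any 1 array other than NC replicate 2.

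Of all genes, 596 rose and 440 fell with the replicate block, 2120 and 1451 probe sets did so when each was fitted on its own, and 553 to 812 genes rose and 395 to 590 fell with 1 array left out. Of the pathway genes, 5 rose with the most variable probe set, 5 without the _s_at and _x_at probe sets, 3 with the replicate block and 2 to 7 with 1 array left out. Among the pathway genes named, the call was lost with the replicate block for GAB1, MAP2K2, FGF5, EGF, EPHA4, CIC and ATXN1, with the most variable probe set for GAB1, MAP2K2, FGF5, HGF, CIC and ATXN1, and for GAB1, EPHA4 and ATXN1 without _s_at and _x_at probe sets. TFPI2, ERRFI1 and MAP2K2, among the genes named, have only _s_at or _x_at probe sets and gave no value without them. Of 29 called pathway genes 14 passed in every alternative that gave a value, 13 fallen and 1 risen. The causes were not tested, except that leaving out an array, or adding the block, leaves fewer residual degrees of freedom. Centred values hide which probe sets are near background, and this limits every value.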
